A study of Mus musculus with 10 samples.

Results

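The effect of a Sox2 transgene induced together with an Oct4 transgene was examined in ileum. Ileum of TetON-Oct4 X TetON-Sox2 mice given doxycycline (Sox2xOct4 +DOX, 2 arrays) was set against ileum of TetON-Oct4 mice given doxycycline (Oct4 +DOX, 2 arrays). These 4 arrays, chosen by genotype and treatment from the labels, are 4 of the 10 in the series. Both groups were C57BL/6 mice aged 6 to 8 weeks that drank 2 mg/ml doxycycline (DOX) in 1% sucrose for 2 days, so the Oct4 transgene and DOX are common to both. In TetON animals DOX lets the regulator rtTA switch on the transgene, and the labels used here name neither the promoter that drives rtTA nor the number of transgene copies. The other arrays serve as neighbours for the values below: rtTA controls that lack the TetOP-Sox2 transgene, on the same DOX regime (rtTA +DOX, 2 arrays), TetON-Sox2 mice given DOX (Sox2 +DOX, 2 arrays) and untreated TetON-Sox2 mice (Sox2 -DOX, 2 arrays), all of the same strain and age.

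Together, the transcription factors Sox2 and Oct4 (encoded by Pou5f1) hold embryonic stem cells in the pluripotent state, where they bind DNA side by side at many enhancers through an HMG box and a POU domain. Outside the early embryo, Sox2 is made in the epithelium of the oesophagus and stomach and not in that of the intestine, whose identity rests on factors such as Cdx2. The ileum is the last part of the small intestine, lined by absorptive enterocytes and by goblet, Paneth, enteroendocrine and tuft cells that arise from crypt stem cells.

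Every value below is the log2 of an array's background-subtracted signal minus the log2 of the 75th percentile of that array, so that 0 is the level of a fairly bright probe. Signals near an array's background lie far below 0. The 75th percentile was a signal of 544.1 to 1614.5. The share of probes well above background was 63.5 to 70.5%. With 2 arrays in each group, precision is limited throughout. Replicates correlated with r of 0.975 in Sox2xOct4 +DOX and 0.979 in Oct4 +DOX. Vil1, Fabp2, Muc2, Lyz1 and Cdx2, genes of small intestine epithelium, lay at 4.28 or more on all 10 arrays. They do not tell ileum from other parts of the small intestine, so the ileum label itself was not checked. Nothing in the labels states that arrays of the same group stem from different mice. The p-values therefore reflect the spread between these samples alone, which outside Oct4 +DOX may be technical. In Oct4 +DOX the 2 arrays differed in sex-linked genes, so they did not come from a single mouse. Xist, the RNA that silences an X chromosome in females, lay at 2.98 and 3.89 in Sox2xOct4 +DOX, against -6.80 and 2.62 in Oct4 +DOX. Sex was thus not balanced between the groups, and its part in the differences was not tested. The Sox2xOct4 and rtTA arrays lay on slide 2, the Oct4 arrays on slide 3 and the TetON-Sox2 arrays on slide 1. Slide and genotype therefore cannot be told apart in the comparison of Sox2xOct4 with Oct4. The rtTA arrays share the slide of the Sox2xOct4 arrays, and the comparison of Sox2 +DOX with Sox2 -DOX lies within 1 slide, so their values stand beside the results.

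The transgenes were examined first. Pou5f1 lay at 2.64 and 0.92 in Sox2xOct4 +DOX, against 6.20 and 4.79 in Oct4 +DOX. It was read by 1 probe (chr17:35118388-35118448, build NCBI36/mm8) that stayed at background on the 6 arrays without an Oct4 transgene. The groups did not overlap, and the Oct4 signal was lower where Sox2 was added, by a log2 of -3.71 ± 0.62 (standard error, limma adjusted p = 0.019, n = 2 each). Without Oct4 +DOX replicate 1 the difference was -3.01 (adjusted p = 0.075). Whether the transgene or the endogenous gene gave this signal was not tested. The single Sox2 probe (chr3:34843400-34843459, NCBI36/mm8) was well above background on 0 of 10 arrays, including those with an induced Sox2 transgene, so it gives no check of the Sox2 label. The same held for Nanog, another pluripotency factor. Sox21, a relative of Sox2, lay at 0.99 and 0.44 in Sox2xOct4 +DOX, against -3.28 and -3.88 in Oct4 +DOX. It was a log2 of 4.29 ± 0.66 higher (adjusted p = 0.014), beside 6.16 (adjusted p = 0.0026) for Sox2 +DOX over Sox2 -DOX. Other Sox21 probes gave 3.54 and 0.27. The call was lost without Sox2xOct4 +DOX replicate 1 (4.02, adjusted p = 0.064) and without Oct4 +DOX replicate 2 (3.99, adjusted p = 0.074). Sox21 was the only one of 15 tested Sox family genes called in this comparison (4.35% of all genes were).

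Of 19051 genes tested, 829 (4.35%) were called at an adjusted p under 0.05. Of these, 449 (2.36%) were higher in Sox2xOct4 +DOX and 380 (1.99%) were lower, and 514 of the 829 differed by more than 4-fold. Of the 829, 141 were well above background in Sox2xOct4 +DOX but on no Oct4 array. A further 55 were so in Oct4 +DOX but on no Sox2xOct4 array, and 2 in neither group. The folds of these genes were not measured. Among genes well above background on all 4 arrays, 304 were called higher and 321 lower. The median difference over all genes was 0.06. At an unadjusted p under 0.05 there were 4246 genes. For 9006 genes (47.3%) the arrays of the groups did not overlap, 25.1% of all genes being higher in Sox2xOct4 +DOX and 22.2% lower. Against rtTA +DOX on the same slide, 1208 genes (6.34%) were called in Sox2xOct4 +DOX, a comparison that shares the Sox2xOct4 arrays. Between rtTA +DOX and Oct4 +DOX, which share the Oct4 arrays and also lie on different slides, 192 genes (1.01%) were called, 54 higher in rtTA (0.283%) and 138 lower (0.724%). When the 4 arrays were fitted by themselves, 68 genes were called, 49 higher and 19 lower, and all 68 were among the 829. Leaving out 1 array at a time gave 312 to 752 calls, with the fewest without Sox2xOct4 +DOX replicate 1. Of the 829 genes, 0 changed sign in any of those fits, which is fixed in advance where the arrays of the groups do not overlap.

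Of the 10 named genes that rose most, Lipf, Nepn, Slc37a2 and Umod also rose when Sox2 was induced without Oct4. Gastric lipase (Lipf), a fat-digesting enzyme of the stomach, lay at 3.56 and 4.68 in Sox2xOct4 +DOX, against -6.02 and -5.36 in Oct4 +DOX. It was 895-fold higher (log2 9.81 ± 0.71, adjusted p = 0.00098), beside a 165-fold rise in the Sox2 pair (Sox2 +DOX over Sox2 -DOX). Nepn, which encodes the secreted leucine-rich repeat protein nephrocan, lay at 0.59 and 2.57 in Sox2xOct4 +DOX and was not well above background in Oct4 +DOX. For such genes a fold is given as a lower bound against the lowest signal well above background on each array. Nepn was at least 188-fold higher (adjusted p = 0.00085), with a bound of 74.2-fold in the Sox2 pair. Slc37a2, a sugar-phosphate exchanger, lay at 2.35 and 3.19 in Sox2xOct4 +DOX, against -3.17 and -4.94 in Oct4 +DOX. Its difference of 6.82 ± 0.55 (adjusted p = 0.0012) stood beside one of 7.65 in the Sox2 pair. A second Slc37a2 probe gave 6.38.

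Further genes rose both in this comparison and in the Sox2 pair. The blood group glycosyltransferase gene Abo was at least 15.1-fold higher (adjusted p = 0.00042), with a bound of 28.1-fold in the Sox2 pair. Arl13a, a small GTPase gene, was at least 12.6-fold higher, and at least 4.76-fold in the Sox2 pair. Fmo1, a flavin monooxygenase that oxidises drugs, lay at 2.14 and 1.70 in Sox2xOct4 +DOX, against -2.65 and -3.84 in Oct4 +DOX, a difference of 5.17 ± 0.41 (adjusted p = 0.0012). Prr18 differed by 5.55 ± 0.57 (adjusted p = 0.0032). Adh7, the alcohol dehydrogenase of the upper digestive tract that also oxidises retinol, lay at -2.23 and -2.87 in Sox2xOct4 +DOX and was not well above background in Oct4 +DOX, at least 10.8-fold higher (adjusted p = 0.0025). In Sox2 +DOX it reached 1.41 and 1.26, at least 156-fold above Sox2 -DOX. The difference between those responses was -3.93 (adjusted p = 0.073), which missed the threshold. Uromodulin (Umod), the main protein of urine, lay at -0.22 and -3.46 in Sox2xOct4 +DOX, at least 17.6-fold above Oct4 +DOX (adjusted p = 0.012). Its call was lost without Oct4 +DOX replicate 1 (6.15, adjusted p = 0.055) and without Oct4 +DOX replicate 2 (6.50, adjusted p = 0.052). With normexp background correction and quantile normalization the difference was 1.88 and not called. Foxa2, a forkhead factor of the foregut and of secretory intestinal cells, lay at 2.23 and 2.35 in Sox2xOct4 +DOX, against -0.38 and -0.18 in Oct4 +DOX. Its difference of 2.58 ± 0.29 (adjusted p = 0.004) compared with 2.06 (adjusted p = 0.0075) in the Sox2 pair, and rtTA +DOX stood between at 0.70 and 1.13.

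**Figure D1:**
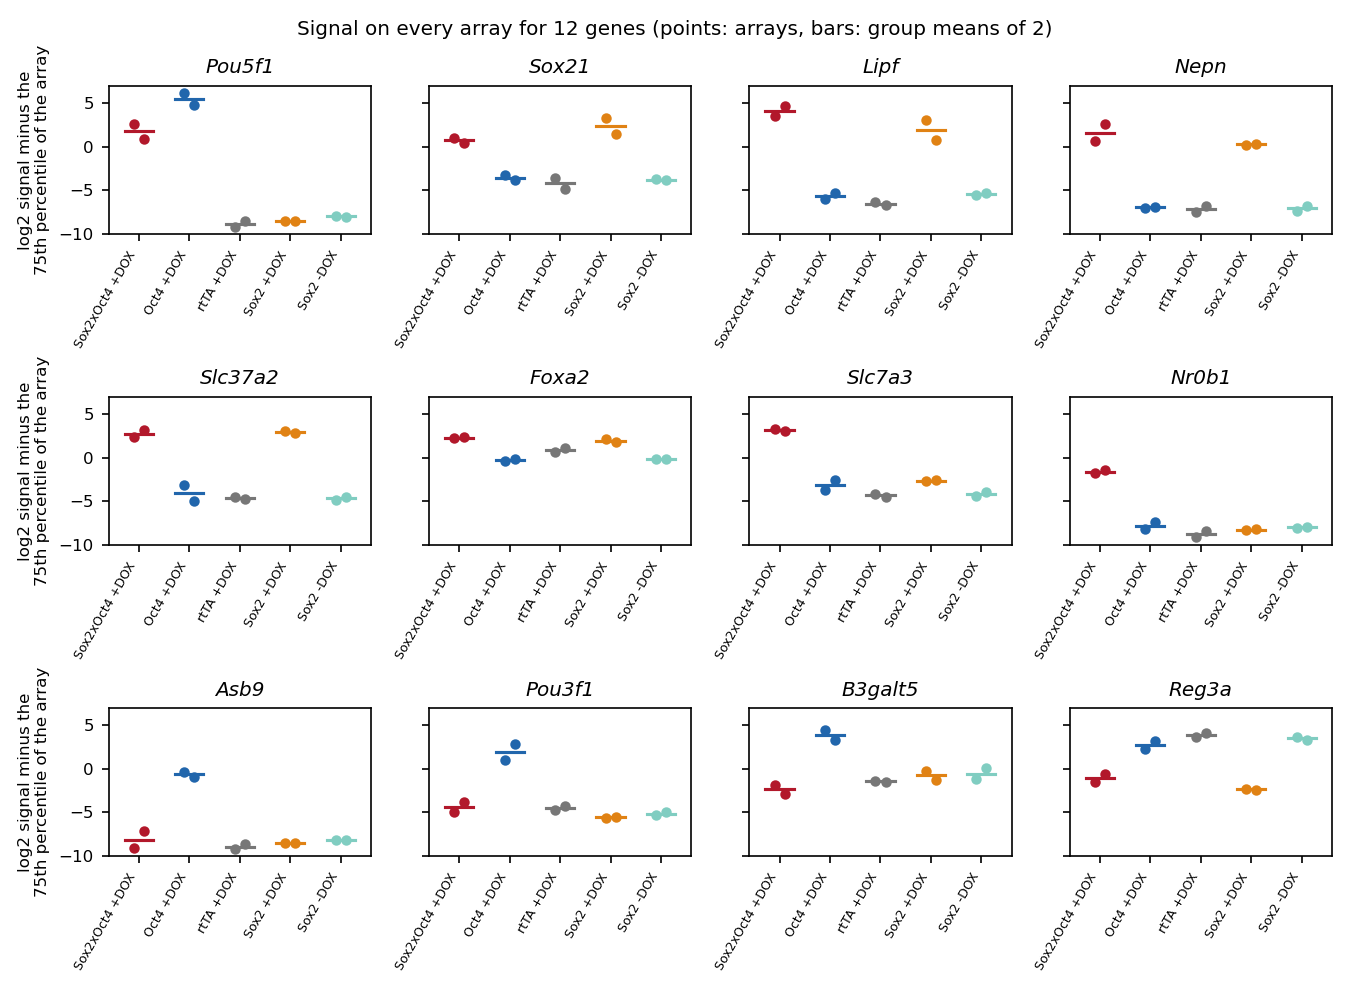
Log2 signal minus the array's 75th percentile (vertical axis) for 12 genes in the 5 groups (horizontal axis), with a point per array and a bar at the mean of the 2 arrays. Lipf, Nepn and Slc37a2 were high in both groups with an induced Sox2 transgene, Slc7a3 and Nr0b1 were high in Sox2xOct4 +DOX alone, and Asb9, Pou3f1 and B3galt5 were high in Oct4 +DOX alone.

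The sequences at the starts of 5 of these genes are shown because Sox2 and Oct4 are DNA-binding proteins and these genes had large differences between the groups: Lipf, Nepn and Slc37a2 rose with Sox2 whether or not Oct4 was on, Nr0b1 rose only in the comparison with Oct4 on (below), and Sprr2h was lower in Sox2xOct4 +DOX than in Oct4 +DOX. Each window holds 300 bases, on build GRCm38.p6, from RefSeq, in the direction of transcription. Capitals mark the cores ACAATG and ACAAAG that SOX proteins recognise and the octamer ATGCAAAT that POU factors recognise, searched on both strands.
Lipf (chr19:33960998-33961297, + strand): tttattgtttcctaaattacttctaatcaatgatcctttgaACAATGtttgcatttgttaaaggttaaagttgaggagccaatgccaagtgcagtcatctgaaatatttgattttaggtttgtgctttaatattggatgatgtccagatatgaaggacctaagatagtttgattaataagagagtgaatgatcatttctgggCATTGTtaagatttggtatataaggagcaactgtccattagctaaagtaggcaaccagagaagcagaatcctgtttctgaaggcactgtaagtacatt
Nepn (chr10:52391358-52391657, + strand): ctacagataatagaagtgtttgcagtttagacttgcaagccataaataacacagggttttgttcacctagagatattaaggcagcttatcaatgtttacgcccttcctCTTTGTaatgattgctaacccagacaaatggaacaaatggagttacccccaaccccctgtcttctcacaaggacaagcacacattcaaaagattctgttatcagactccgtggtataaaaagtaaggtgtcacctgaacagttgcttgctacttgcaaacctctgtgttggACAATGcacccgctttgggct
Slc37a2 (chr9:37255689-37255988, - strand): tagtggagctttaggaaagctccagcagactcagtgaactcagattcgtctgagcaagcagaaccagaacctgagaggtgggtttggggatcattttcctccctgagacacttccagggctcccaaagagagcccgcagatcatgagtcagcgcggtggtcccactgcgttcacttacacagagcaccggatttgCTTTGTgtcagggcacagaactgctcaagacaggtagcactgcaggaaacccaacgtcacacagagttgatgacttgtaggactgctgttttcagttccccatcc
Nr0b1 (chrX:86191525-86191824, + strand): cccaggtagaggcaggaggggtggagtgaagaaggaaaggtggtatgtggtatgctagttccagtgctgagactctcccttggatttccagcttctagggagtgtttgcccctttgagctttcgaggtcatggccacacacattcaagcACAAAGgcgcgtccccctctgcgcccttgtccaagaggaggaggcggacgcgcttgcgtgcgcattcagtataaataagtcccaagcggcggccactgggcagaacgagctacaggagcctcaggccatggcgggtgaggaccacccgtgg
Sprr2h (chr3:92385435-92385734, + strand): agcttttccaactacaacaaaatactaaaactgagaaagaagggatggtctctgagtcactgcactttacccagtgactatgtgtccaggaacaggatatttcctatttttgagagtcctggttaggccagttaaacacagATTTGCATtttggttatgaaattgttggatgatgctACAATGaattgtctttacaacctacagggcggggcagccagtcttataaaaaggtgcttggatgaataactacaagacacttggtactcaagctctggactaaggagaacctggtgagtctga
All 5 windows shown were picked with their matches known. Of 14 named genes called higher that have a window, 10 hold a SOX core in at least 1 window and 0 hold the octamer, and Sox21, Umod, Adh7 and Dmrta1 hold no SOX core. Of 16 named genes called lower, 12 hold a SOX core in at least 1 window and 2 the octamer. These counts are over genes, some with several windows, and the shares that follow are over windows. A share over genes was not computed for all tested genes, so the counts cannot be compared with those shares. Over the 15430 windows of all tested genes with a window, 21.5% hold a SOX core of either kind. The share was 31.2% of 330 windows of genes that were higher in Sox2xOct4 +DOX, 25.0% of 316 windows of genes that were lower, and 34.2% of 111 windows of genes that rose in both Sox2 responses. The octamer was in 1.52% of windows of the higher genes and 2.85% of those of the lower genes, against 1.44% over all genes. Some genes have several windows, base composition was not matched, and a match is a description of the letters and not of binding.

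Another set of genes was high in Sox2xOct4 +DOX and lower in every other group. Slc7a3, a transporter of cationic amino acids, lay at 3.27 and 3.04 in Sox2xOct4 +DOX, against -3.77 and -2.52 in Oct4 +DOX, a 78.7-fold difference (log2 6.30 ± 0.41, adjusted p = 0.00058). In Sox2 +DOX it lay at -2.70 and -2.61, against -4.40 and -4.01 in Sox2 -DOX. The difference between the response with Oct4 on and the response without it was 4.75 ± 0.58 (adjusted p = 0.019). Nr0b1 (Dax1), a nuclear receptor of adrenal and gonad that is also made in mouse embryonic stem cells, lay at -1.81 and -1.47 in Sox2xOct4 +DOX and was at background on the remaining 8 arrays. It was at least 20.2-fold higher than in Oct4 +DOX (adjusted p = 0.00042), and its responses differed by 6.48 ± 0.51 (adjusted p = 0.0064). Foxj1, the forkhead factor that switches on motile cilia, lay at -1.44 and -2.11 in Sox2xOct4 +DOX, at least 18.4-fold above Oct4 +DOX (adjusted p = 0.0032). Its responses differed by 6.03 ± 0.83 (adjusted p = 0.029). Pbld1 lay at -0.64 and -0.03 in Sox2xOct4 +DOX, against -4.76 and -5.18 in Oct4 +DOX, with responses that differed by 6.17 ± 0.75 (adjusted p = 0.019). The Sox2 response without Oct4 compares DOX and sucrose with no treatment, while both groups of the other response had DOX, so a difference of responses holds the effect of DOX as well. Of 19 pluripotency genes tested, Nr0b1 was called higher and Pou5f1 lower (2.36% and 1.99% of all genes were), and the median was -0.14. Fbxo15, a marker of embryonic stem cells, lay at -2.96 and -2.15 in Sox2xOct4 +DOX, against -5.72 and -6.51 in Oct4 +DOX, and was not called (adjusted p = 0.054).

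Several large rises rested on unusual values in 1 group or on 1 probe. Defa21, an alpha-defensin of Paneth cells, lay at 6.43 and 8.35 in Sox2xOct4 +DOX and was not well above background in Oct4 +DOX, at least 10600-fold apart (adjusted p = 6.5e-05). It lay at 6.92 to 7.99 on the 6 arrays of the remaining groups, so the Oct4 arrays were those that stood apart. Alpha-defensins are near-identical copies of one another, which a probe may read together, and no other of the 25 tested Paneth genes was called. Prm1, a protamine that packs sperm DNA, lay at 2.72 and 6.56 in Sox2xOct4 +DOX, against -1.91 and -1.33 in Oct4 +DOX, and was likewise low only there (adjusted p = 0.028). A second Prm1 probe gave -1.08, and the call was lost without Sox2xOct4 +DOX replicate 2 (4.35), without Oct4 +DOX replicate 1 (5.97) and without Oct4 +DOX replicate 2 (6.56). The skeletal muscle myosins Myh2 and Myh8 were higher by 6.93 ± 1.26 (adjusted p = 0.025) and 6.37 ± 1.22 (adjusted p = 0.028). Myh2 lay at 2.26 and -1.70 in Sox2xOct4 +DOX, against -8.19 and -5.10 in Oct4 +DOX. Without Sox2xOct4 +DOX replicate 1 the differences were 4.95 and 5.10, and without Oct4 +DOX replicate 1 they were 5.38 and 4.58, none of them called. Other genes of skeletal muscle, looked up after these values were seen, were not called: Acta1 differed by 0.43, Ckm by 0.36, Mylpf by 0.70 and Tnnc2 by 0.86.

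Several of the largest falls were of genes that were high on the Oct4 arrays and, Sptssb apart, near the rtTA level in Sox2xOct4 +DOX. Asb9, an adaptor of ubiquitin ligases, was at background in Sox2xOct4 +DOX, against -0.40 and -0.93 in Oct4 +DOX, at least 55-fold lower (adjusted p = 0.0012). The 6 arrays of the remaining groups were at background as well. Pou3f1 (Oct6), another POU factor, lay at -5.04 and -3.83 in Sox2xOct4 +DOX, against 1.02 and 2.86 in Oct4 +DOX, with -4.81 and -4.33 in rtTA +DOX. It differed by -6.38 ± 0.61 (adjusted p = 0.0023). Tuba8, an alpha-tubulin, differed by -6.54 ± 0.55 (adjusted p = 0.0013). B3galt5, a galactosyltransferase of gut glycans, lay at -1.91 and -2.87 in Sox2xOct4 +DOX, against 4.45 and 3.28 in Oct4 +DOX and -1.42 and -1.54 in rtTA +DOX. It differed by -6.25 ± 0.60 (adjusted p = 0.0024). Sprr2h, of the small proline-rich proteins of cornified epithelium, was at least 16.4-fold lower (adjusted p = 0.0012). Sptssb, a subunit of serine palmitoyltransferase, lay at -1.11 and -2.53 in Sox2xOct4 +DOX, against 2.69 and 4.23 in Oct4 +DOX and -4.20 and -3.65 in rtTA +DOX (adjusted p = 0.0044). The signal of Pou5f1 was itself 13.1-fold lower in Sox2xOct4 +DOX, and its part in these falls was not tested.

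The neurotrophin gene Bdnf and the gene of its receptor TrkB, Ntrk2, both fell. Bdnf lay at -6.01 and -6.23 in Sox2xOct4 +DOX, against -1.54 and -1.72 in Oct4 +DOX, a difference of -4.49 ± 0.27 (adjusted p = 0.00042), and a second probe gave -4.67. It was -5.92 and -5.73 in rtTA +DOX. Ntrk2 lay at -4.61 and -3.09 in Sox2xOct4 +DOX, against 0.12 and 1.33 in Oct4 +DOX, a difference of -4.57 ± 0.58 (adjusted p = 0.0069). Both also fell in the Sox2 pair, with differences of -1.94 (adjusted p = 0.0077) and -3.62 (adjusted p = 0.012). Krt84, a keratin of hair and nail, lay at -4.95 and -5.97 in Sox2xOct4 +DOX, against 1.60 and 0.39 in Oct4 +DOX, a difference of -6.45 ± 0.71 (adjusted p = 0.0039), and by -3.39 in the Sox2 pair (adjusted p = 0.029).

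Several genes of mucosal defence fell. Of 34 tested genes of the antimicrobial and acute mucosal response, 5 fell and 0 rose (1.99% and 2.36% of all genes did), with a median of -0.56, and in the Sox2 pair 9 of the 34 fell (4.79% of all genes did) and 3 rose (3.02%). Reg3a, a lectin of enterocytes and Paneth cells that binds bacteria, lay at -1.58 and -0.67 in Sox2xOct4 +DOX, against 2.31 and 3.15 in Oct4 +DOX. It was lower by -3.85 ± 0.41 (adjusted p = 0.0034), and by -5.91 (adjusted p = 0.00057) in the Sox2 pair. Duoxa2, which matures the hydrogen peroxide-producing oxidase Duox2, lay at -0.86 and -1.46 in Sox2xOct4 +DOX, against 2.88 and 4.84 in Oct4 +DOX, a difference of -5.02 ± 0.66 (adjusted p = 0.0078). The serum amyloid A genes Saa1, Saa2 and Saa3, acute-phase lipid carriers, differed by -5.40, -5.71 and -4.92 (adjusted p = 0.012, 0.01 and 0.015). Saa1 and Saa2 are close copies that a probe may read together. Saa2 lay at 0.15 and 2.08 in Sox2xOct4 +DOX, against 7.44 and 6.21 in Oct4 +DOX, but rtTA +DOX was also low, at 2.16 and 3.99, and Saa2 was not called between Sox2xOct4 and rtTA (adjusted p = 0.18). Without Oct4 +DOX replicate 1 the differences of Saa1, Saa2 and Saa3 were -4.71, -5.10 and -4.14 and not called. Without Sox2xOct4 +DOX replicate 1 those of Saa1 and Saa3 were -4.51 and -4.13 and not called. The count of members that fell was 2 to 7 when 1 array was left out, fewest without Oct4 +DOX replicate 1.

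Whether Sox2 moved the same genes with and without Oct4 was examined with the comparison of Sox2 +DOX with Sox2 -DOX, which shares no array with that of Sox2xOct4 with Oct4. In it 1488 genes (7.81%) were called. Of the 829 genes called with Oct4 on, 266 were called there in the same direction, 122 higher in both and 144 lower in both, which is 32.1% of the 829 and 17.9% of the 1488. Among genes higher in Sox2xOct4 +DOX, 71.7% had a positive value in the Sox2 pair, against 45.0% of all genes tested, and the median there was 0.67. Among genes lower in Sox2xOct4 +DOX, 84.7% had a negative value, against 55.0% of all genes, with a median of -1.05. Pearson's r across all genes was 0.39. Genes are not independent replicates, so this is a description. The difference of the responses was called for 145 genes (0.761%), 86 (0.451%) with a larger value where Oct4 was on and 59 (0.31%) with a smaller one, and 2986 genes had an unadjusted p under 0.05 there. Of the 829 genes, 87 were among these 145.

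**Figure D2:**
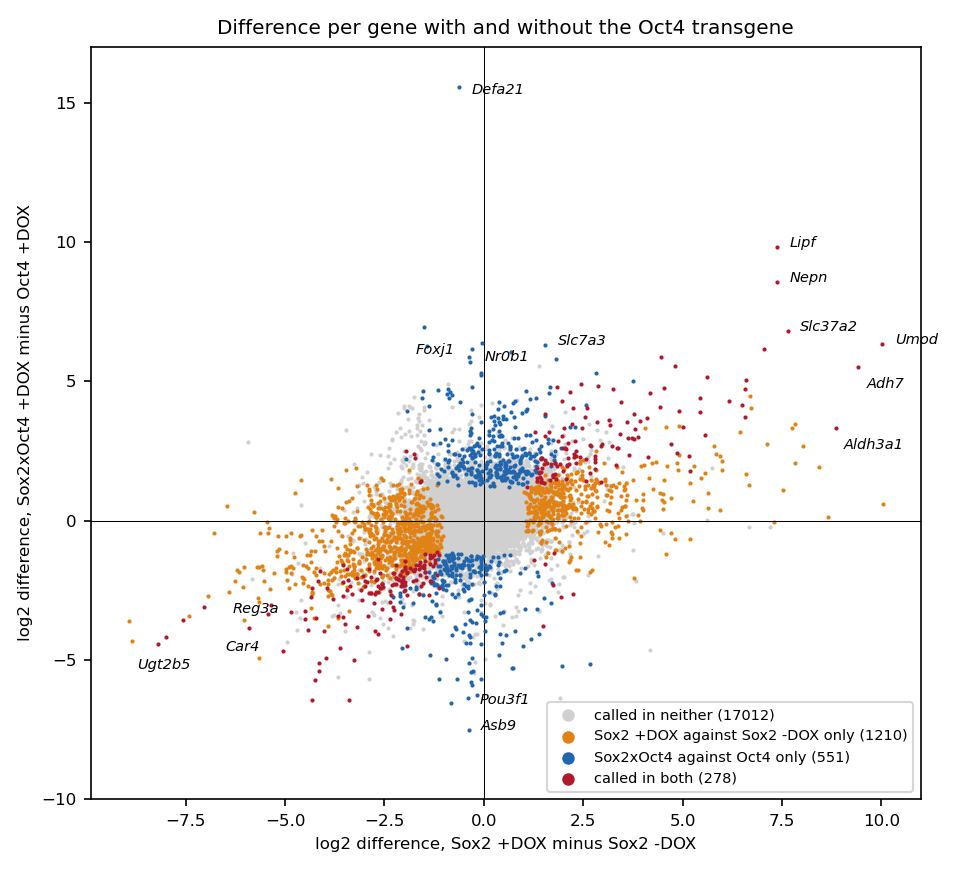
Each point is 1 of 19051 genes, with the log2 difference of Sox2 +DOX minus Sox2 -DOX on the horizontal axis and that of Sox2xOct4 +DOX minus Oct4 +DOX on the vertical axis, coloured by the comparison in which it was called. Lipf, Nepn and Slc37a2 lie far up on both axes, while Nr0b1, Slc7a3 and Asb9 lie near 0 to 1.55 on the horizontal axis.

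The 2 responses ran in opposite directions for 12 genes called in both. Of these, 5 were higher in Sox2xOct4 than in Oct4 and lower in Sox2 +DOX, and 7 were the reverse. The following were picked after their values were seen. Lmo1, a LIM-domain partner of transcription factors, lay at -2.32 and -1.81 in Sox2xOct4 +DOX, against 1.58 and 1.89 in Oct4 +DOX (difference -3.80, adjusted p = 0.0012). It was higher in Sox2 +DOX, at -2.89 and -2.96, than in Sox2 -DOX, at -4.45 and -4.39. In rtTA +DOX it lay at -5.04 and -4.55, so the groups with 1 transgene and with both were all above rtTA. Plod2, a lysyl hydroxylase of collagen, ran the other way, 2.38 higher in Sox2xOct4 than in Oct4 (adjusted p = 0.01) and -1.76 in the Sox2 pair (adjusted p = 0.021). Sdc3, a cell-surface proteoglycan, differed by -2.31 (adjusted p = 0.017) with Oct4 on and by 1.73 (adjusted p = 0.032) without.

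Other genes responded to Sox2 alone and had little difference with Oct4 on, and in these the Oct4 arrays lay nearer to Sox2 +DOX than to Sox2 -DOX or beyond it. They too were chosen after their values were seen. Krt6a, a keratin of stratified and stressed epithelium, lay at 0.51 and -2.63 in Sox2xOct4 +DOX, against -1.82 and -1.51 in Oct4 +DOX, and was not well above background in Sox2 -DOX, against 3.07 and 2.10 in Sox2 +DOX. The difference of its responses was -9.44 ± 1.32 (adjusted p = 0.03). Ciita, the activator of MHC class II genes, lay at -1.12 and -1.32 in Sox2xOct4 +DOX, against -0.93 and -1.39 in Oct4 +DOX. In Sox2 +DOX it lay at -2.29 and -2.11, against 1.39 and 1.63 in Sox2 -DOX, and the difference of responses was 3.65 ± 0.42 (adjusted p = 0.019). H2-DMb1, a class II chaperone, showed the same order of groups, with a difference of responses of 3.40 (adjusted p = 0.041). St6galnac1, a sialyltransferase of goblet cell mucins, was not well above background in Sox2xOct4 +DOX or in Oct4 +DOX, and lay at -2.45 and -2.06 in rtTA +DOX. The responses of St6galnac1 differed by 5.16 ± 0.63 (adjusted p = 0.019), but its response with Oct4 on was not measured, as both groups lay near background.

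Genes of cholesterol synthesis were lower as a group. Of 25 tested, 9 fell and 0 rose (1.99% and 2.36% of all genes did). Of the 25, 24 had a negative difference, with a median of -1.34. Cyp51, which demethylates lanosterol, lay at -0.05 and -0.47 in Sox2xOct4 +DOX, against 2.35 and 2.04 in Oct4 +DOX, a difference of -2.46 ± 0.32 (adjusted p = 0.008). The other probes of Cyp51 gave -2.38 and -1.02. Sqle, the oxygenase that makes squalene epoxide, lay at 2.66 and 2.35 in Sox2xOct4 +DOX, against 4.26 and 3.93 in Oct4 +DOX (difference -1.59, adjusted p = 0.023). Mvd and Fdps, enzymes of the early mevalonate pathway, differed by -1.67 and -1.68 (adjusted p = 0.018 and 0.026). Hsd17b7, which acts late in the pathway, differed by -2.18 (adjusted p = 0.024). Mvk, Fdft1, Msmo1 and Nsdhl fell too. In the Sox2 pair 0 of the 25 were called by limma and 8 had an unadjusted p under 0.05, with a median of -0.54. Between Sox2xOct4 and rtTA on the same slide 11 of the 25 fell (3.15% of all genes did there), with a median of -1.61. The difference of the responses was called by limma for 0 of the 25 genes, and 6 had an unadjusted p under 0.05. The count of cholesterol genes that fell was smaller when 1 array was left out: 2 without Sox2xOct4 +DOX replicate 1, 3 without Sox2xOct4 +DOX replicate 2, 1 without Oct4 +DOX replicate 1 and 4 without Oct4 +DOX replicate 2. Fitting the 4 arrays by themselves gave 0 by limma. Cyp51 was called whichever array was left out. Sqle (-1.42 to -1.76) and Fdps (-1.42 to -1.93) were called in none of those 4 fits. Mvd was not called without Sox2xOct4 +DOX replicate 2 (-1.48), Oct4 +DOX replicate 1 (-1.52) or Oct4 +DOX replicate 2 (-1.83). Hsd17b7 was not called without Sox2xOct4 +DOX replicate 1 (-1.89) or Oct4 +DOX replicate 1 (-1.80).

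**Figure D3:**
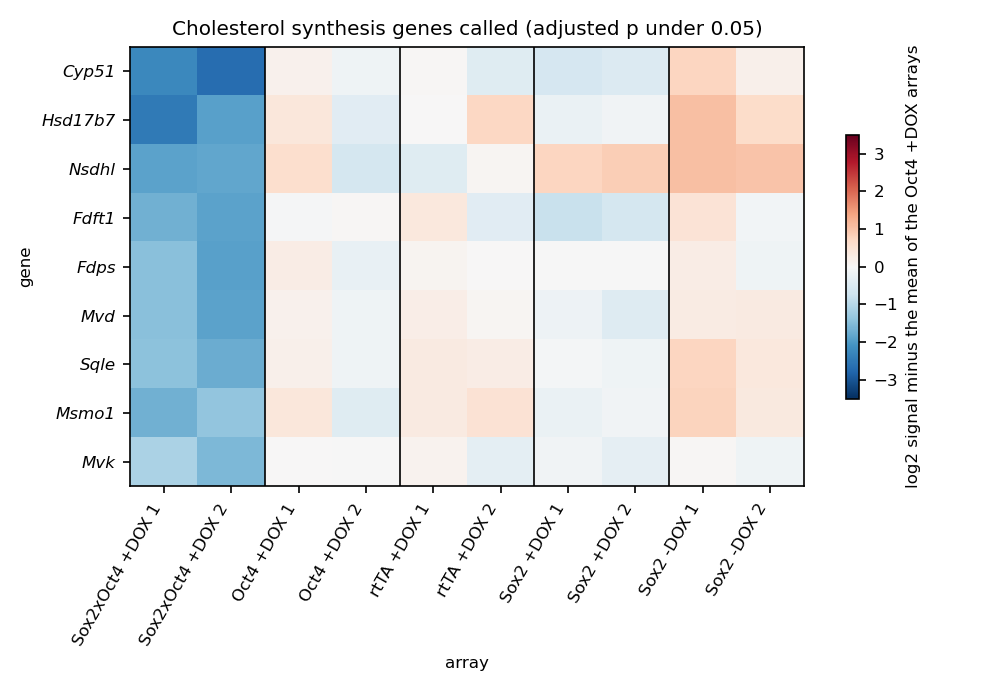
Signal of the 9 cholesterol synthesis genes that fell (rows) on each of the 10 arrays (columns), as log2 difference from the mean of the Oct4 +DOX arrays, with lower values in blue. Both Sox2xOct4 arrays lie below that mean in every row, while most values of the rtTA and TetON-Sox2 arrays are closer to it.

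Genes of the absorptive enterocyte were lower in many cases without passing the test. Of 31 brush border and digestion genes, 3 fell (1.99% of all genes did) and 0 rose, with a median of -1.78 and 28 negative differences. Without Sox2xOct4 +DOX replicate 1 the median was -1.07. In the Sox2 pair 18 of the 31 fell (4.79% of all genes did), with a median of -3.15, and the difference of responses was called by limma for 0 (6 at an unadjusted p under 0.05). Slc3a1, a subunit of a transporter of cystine and basic amino acids, lay at 0.70 and 2.86 in Sox2xOct4 +DOX, against 5.03 and 5.38 in Oct4 +DOX (adjusted p = 0.047). Slc26a6, an anion exchanger, lay at 0.49 and 1.89 in Sox2xOct4 +DOX, against 4.29 and 5.12 in Oct4 +DOX (adjusted p = 0.045). Anks4b, a scaffold of microvilli, differed by -1.80 (adjusted p = 0.03). The calls of these genes are close to the threshold, and 0 of the 31 were called without Sox2xOct4 +DOX replicate 1, without Oct4 +DOX replicate 1 or without Oct4 +DOX replicate 2, against 5 without Sox2xOct4 +DOX replicate 2, where Anks4b (-1.72) was not among them. Slc3a1, Slc26a6 and Anks4b then differed by -2.35, -2.82 and -1.89 without Sox2xOct4 +DOX replicate 1. They differed by -3.60, -3.93 and -1.72 without Oct4 +DOX replicate 1 and by -3.25, -3.10 and -1.89 without Oct4 +DOX replicate 2. In whole tissue, fewer cells of a type and less RNA per cell cannot be told apart. Car4, a membrane carbonic anhydrase of surface enterocytes, lay at -1.45 and -1.36 in Sox2xOct4 +DOX, against 3.45 and 3.08 in Oct4 +DOX, a difference of -4.67 ± 0.59 (adjusted p = 0.0068), and was called in every fit that left out 1 array. Car4 was not one of the 31 brush border and digestion genes. In a list of 15 colon genes 4 fell and 1 rose (1.99% and 2.36% of all genes did), with a median of 0.42. Among lipid absorption genes 1 of 29 fell, Mttp, which loads lipid onto lipoproteins, with a median of -1.05. Its call (adjusted p = 0.048) was lost in all 4 fits that left out 1 array, with differences of -1.93 to -2.78.

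Among 26 intestinal transcription factors, Foxa2 rose and Prdm1 fell (2.36% and 1.99% of all genes did), with a median of -0.44. Prdm1, a repressor of the immature gut, differed by -1.59 (adjusted p = 0.049), and was not called without Sox2xOct4 +DOX replicate 1 (-1.17), Oct4 +DOX replicate 1 (-1.51) or Oct4 +DOX replicate 2 (-1.67). Cdx2, the factor that sets intestinal identity, lay at 4.56 and 4.66 in Sox2xOct4 +DOX, against 5.25 and 6.11 in Oct4 +DOX, and was not called (difference -1.07, adjusted p = 0.25). Of 29 stem cell and Wnt target genes, 3 rose (2.36% of all genes did) and 0 fell, with a median of 0.49. Lgr5, the receptor that marks crypt stem cells, lay at 1.43 and 1.55 in Sox2xOct4 +DOX, against -0.83 and -1.56 in Oct4 +DOX (difference 2.69, adjusted p = 0.033). Values of 0.12 and -0.14 in rtTA +DOX lay between. Lrig1 and Slc12a2 differed by 1.73 and 1.63 (adjusted p = 0.037 and 0.026). The count was 0 by limma without Sox2xOct4 +DOX replicate 1, without Oct4 +DOX replicate 1 and without Oct4 +DOX replicate 2, where Lgr5 differed by 2.75, 3.05 and 2.32, and 1 without Sox2xOct4 +DOX replicate 2, where Lrig1 was called and Lgr5 (2.62) and Slc12a2 (1.44) were not. In the first 3 of those fits Lrig1 differed by 1.29, 1.86 and 1.60 and Slc12a2 by 1.83, 1.47 and 1.80. The cell cycle list had 0 of 37 genes called by limma, and 2 with an unadjusted p under 0.05, and a median of 0.41. That median had no stable sign, at -0.31 without Sox2xOct4 +DOX replicate 1, -0.19 without Oct4 +DOX replicate 2, 0.97 without Sox2xOct4 +DOX replicate 2 and 0.96 without Oct4 +DOX replicate 1. Among 18 tuft cell genes 2 fell, Rgs13 and Lrmp. Rgs13, a regulator of G protein signalling, lay at -1.88 and -1.48 in Sox2xOct4 +DOX, against 0.90 and 1.22 in Oct4 +DOX (adjusted p = 0.0046). It lay at -1.64 and -1.79 in rtTA +DOX. Lrmp differed by -2.20 (adjusted p = 0.015) and was not called without Sox2xOct4 +DOX replicate 1 (-2.20) or Oct4 +DOX replicate 2 (-1.73).

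Of 31 squamous epithelium genes, 2 rose and 3 fell (2.36% and 1.99% of all genes did), with a median of -0.08, where 6 rose (3.02%) and 0 fell in the Sox2 pair. The rises numbered 0 without Sox2xOct4 +DOX replicate 1 and without Oct4 +DOX replicate 2, and 1 without Oct4 +DOX replicate 1. Fabp5, a fatty acid-binding protein and the other gene that rose (2.22), was called in none of the 4 fits that left out 1 array (2.00 to 2.44). The size of the Fabp5 difference depended on how dim values were treated. It was 0.16 with normexp and quantile normalization and 0.29 when dim values were raised to a floor. Quantile normalization alone gave 2.29, and Fabp5 was not called in any of these fits. Pkp1, a desmosome plaque protein, lay at 4.30 and 4.05 in Sox2xOct4 +DOX, against 2.70 and 2.45 in Oct4 +DOX (difference 1.60, adjusted p = 0.022). Lypd3, a surface protein of squamous cells, fell to -4.27 and -4.72 in Sox2xOct4 +DOX, against -0.41 and -0.82 in Oct4 +DOX (difference -3.88 ± 0.50, adjusted p = 0.0069), and lay at -4.90 and -3.31 in rtTA +DOX. Pkp1 was called in 1 of the 4 fits that left out 1 array, with 1.48 without Sox2xOct4 +DOX replicate 1, 1.73 without Oct4 +DOX replicate 1 and 1.48 without Oct4 +DOX replicate 2 where it was not. Of 17 stomach and foregut genes, Lipf rose and Tff1, a trefoil peptide of the stomach surface, fell. Anxa10, an annexin of gastric epithelium, lay at -1.99 and 0.10 in Sox2xOct4 +DOX, against -5.04 and -4.93 in Oct4 +DOX, and missed the threshold (adjusted p = 0.052). Tff1 differed by -2.22 (adjusted p = 0.019), and by -1.83 without Sox2xOct4 +DOX replicate 1 and -1.84 without Oct4 +DOX replicate 2, neither called.

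Genes that handle foreign compounds moved both ways. Of 46 xenobiotic metabolism genes, 4 rose and 3 fell (2.36% and 1.99% of all genes did), with a median of -0.59. In the Sox2 pair 8 rose and 10 fell (3.02% and 4.79%). When 1 array was left out, 2 to 3 rose, fewest without Oct4 +DOX replicate 1. The falls numbered 4 without Sox2xOct4 +DOX replicate 2 and 1 without each of the other 3 arrays. The median was -0.03 without Sox2xOct4 +DOX replicate 1 and -0.93 without Sox2xOct4 +DOX replicate 2. Cyp2f2, a cytochrome P450 known from airway cells, lay at -1.47 and -2.22 in Sox2xOct4 +DOX, against -5.94 and -4.95 in Oct4 +DOX (difference 3.61, adjusted p = 0.0061). The glucuronosyltransferase gene Ugt2b5 differed by -4.43 ± 0.60 (adjusted p = 0.0087), beside -8.20 in the Sox2 pair. Ugt2b36, a close relative that may be read by the same probe, differed by -4.19. Of 31 targets of the antioxidant factor Nrf2, 4 rose and 1 fell (2.36% and 1.99% of all genes did), with a median of -0.32. Gsta3, a glutathione transferase, lay at 3.84 and 4.26 in Sox2xOct4 +DOX, against -0.20 and -0.97 in Oct4 +DOX, a difference of 4.63 ± 0.38 (adjusted p = 0.0012) that a second probe gave as 4.70. It was called in every fit that left out 1 array. Srxn1, which repairs peroxiredoxins, lay at 3.44 and 3.74 in Sox2xOct4 +DOX, against 5.75 and 5.74 in Oct4 +DOX (difference -2.15, adjusted p = 0.0083). The aldehyde dehydrogenase Aldh3a1 was at least 2.59-fold higher in Sox2xOct4 +DOX than in Oct4 +DOX (adjusted p = 0.011), at -3.91 and -5.30. In Sox2 +DOX it lay at 1.05 and 0.78, and its responses differed by -5.51 ± 0.67 (adjusted p = 0.019). Without Oct4 +DOX replicate 1 its difference was 3.13 and not called. The count of Nrf2 targets that rose was 1 to 3 when 1 array was left out, fewest without Oct4 +DOX replicate 1.

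Interferon and antigen presentation genes, which fell widely in the Sox2 pair, had few called differences between Sox2xOct4 and Oct4. Of 37 interferon response genes, 2 rose and 1 fell (2.36% and 1.99% of all genes did), with a median of -0.07, whereas 18 fell in the Sox2 pair (4.79%) with a median of -2.19. The gene that fell, the chemokine Cxcl9 (-1.82, adjusted p = 0.048), was called in none of the 4 fits that left out 1 array (-1.62 to -2.02). Leaving out 1 array gave 3 rises without Sox2xOct4 +DOX replicate 1 and 1 without each of the others, with medians of -0.21 to 0.29. Against rtTA +DOX on the same slide, 6 of the 37 rose in Sox2xOct4 +DOX and 0 fell, with a median of 0.51. The difference of responses had a median of 2.01 over the 37, and 26 had an unadjusted p under 0.05. It was called for 2 of the 37, Ifi44 and Gbp6. Ifi44 lay at -0.65 and -0.59 in Sox2xOct4 +DOX, against -2.85 and -3.90 in Oct4 +DOX, a difference of 2.76 ± 0.36 (adjusted p = 0.0078), and a second probe gave 3.09. Its responses differed by 4.05 ± 0.51 (adjusted p = 0.022). Gbp6, a guanylate-binding protein, had a difference of responses of 5.74 ± 0.93 (adjusted p = 0.041). Of 23 genes of MHC and antigen processing 1 fell, Psmb10, a subunit of the immunoproteasome (difference -1.22, adjusted p = 0.049), where 13 fell in the Sox2 pair. The median was -0.29, and 21 of the 23 differences were negative. Against rtTA +DOX, 7 of the 23 fell in Sox2xOct4 +DOX and 0 rose, with a median of -0.74. Of all genes, 3.15% fell and 3.19% rose there. The difference of responses was called for 2 of the 23, and 10 had an unadjusted p under 0.05. Psmb10 was called in 0 of the 4 fits that left out 1 array, with differences of -1.08 to -1.36. Of 32 genes of T cells and intraepithelial lymphocytes 0 were called by limma and 6 had an unadjusted p under 0.05, with a median of 0.59, where 12 fell in the Sox2 pair with a median of -1.77. The difference of responses was called by limma for 0 of the 32, but 26 had an unadjusted p under 0.05, with a median of 2.54. The summed signal of these genes, in multiples of the array's 75th percentile, was 21.1 and 12.6 in Sox2xOct4 +DOX, against 9.48 and 11.1 in Oct4 +DOX. It was 11.6 and 21.9 in Sox2 +DOX, against 82.8 and 68.1 in Sox2 -DOX. Both Oct4 arrays thus lay below both Sox2 +DOX arrays. Their part in the interferon and MHC values was not tested.

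For markers of muscle, fat and pancreas the 2 Sox2xOct4 arrays lay on either side of both Oct4 arrays. The summed signal of 28 smooth muscle genes was 141 and 721 in Sox2xOct4 +DOX, against 211 and 392 in Oct4 +DOX. That of 17 adipocyte genes was 16.6 and 93.7 in Sox2xOct4 +DOX, against 68.6 and 59.8 in Oct4 +DOX, and Adipoq, the adipocyte hormone adiponectin, lay at -8.13 on the first Sox2xOct4 array. For 11 exocrine pancreas genes the sums were 3.11 and 15.7 in Sox2xOct4 +DOX, against 4.67 and 10.1 in Oct4 +DOX. In the lists of smooth muscle, fibroblasts, adipocytes, enteric neurons, endothelium, macrophages, B cells, goblet cells and enteroendocrine cells 0 genes were called by limma. The same was true of the circadian clock, fatty acid oxidation, the respiratory chain, the unfolded protein response, tight junctions and proximal small intestine. Over all 18 lists with 0 called genes, which include cell cycle, T cell and sex-linked genes, 65 of 438 genes had an unadjusted p under 0.05. Apart from the sex-linked list (-2.06), the medians of these lists ran from -0.97 for adipocytes to 0.72 for endothelium and blood.

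**Figure D4:**
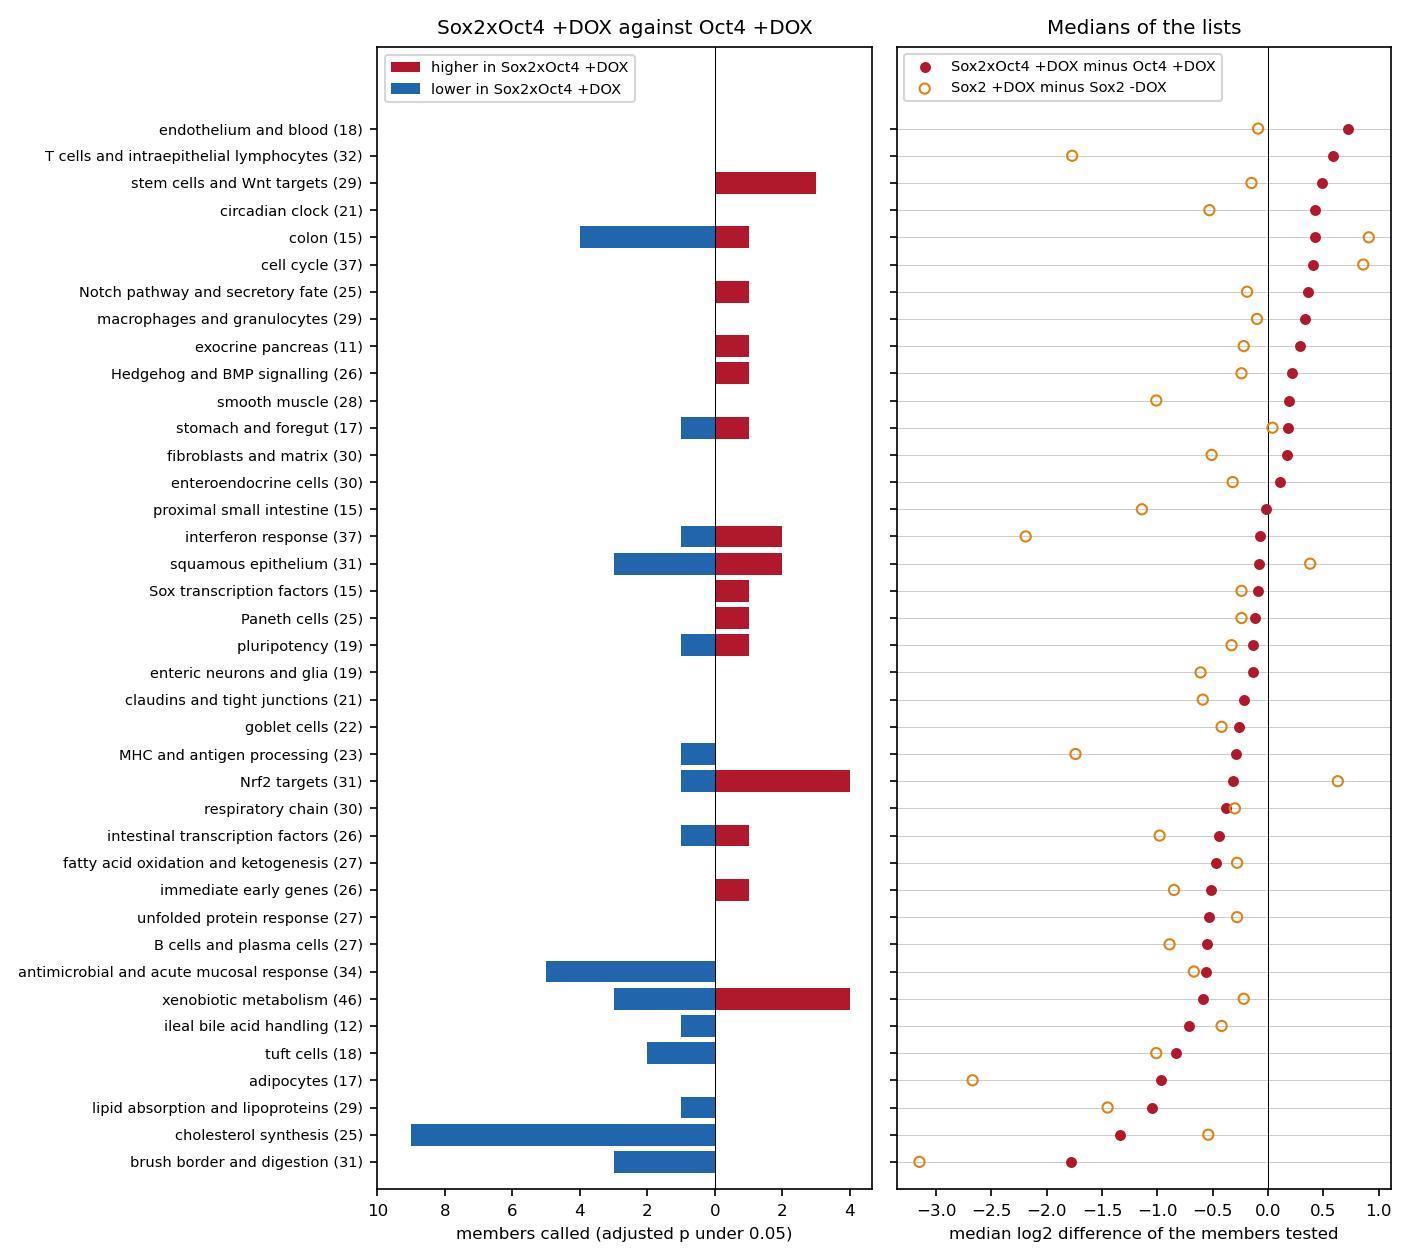
For 39 gene lists (number of tested genes in brackets), the left panel shows how many genes were called higher or lower in Sox2xOct4 +DOX than in Oct4 +DOX, and the right panel shows the median log2 difference of each list there (filled) and between Sox2 +DOX and Sox2 -DOX (open). Cholesterol synthesis has the most genes called lower, 9 of 25, and interferon response and T cells have open points near -2 and filled points near 0 or above.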

How the data were processed

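Cy3-labelled ileum RNA was read on 1-colour Agilent arrays, 10 in 5 groups of 2 by genotype and DOX in the labels. Each deposited file gives the intensity of every spot after Feature Extraction had subtracted background. No step between arrays was applied (software 9.5.3.1, 10.7.1.1 and 10.7.3.1 by slide, per the file headers, where the submitters' processing notes name 9.1). Median spot and background intensity and the 0 or 1 flags are in those deposited files too. The authors' normalized table of the TetON-Sox2 arrays was not used.

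Controls and outlier spots were dropped, spots of a probe averaged, and the log2 signal set relative to the 75th percentile of its array. Names came from RefSeq tables for 80.3% of 41143 probes. A probe stayed in if some group had it well above background on both arrays (28760 did), and the brightest represented its gene (19051). limma 3.58.1 (R 4.3.3) fitted 5 group means to the 10 arrays, with 5 residual and 3.3 prior degrees of freedom. Calls are at an adjusted p under 0.05 (Benjamini-Hochberg, all genes), and the median standard error was 0.39. The fit was tested on simulated data. Python 3.11.15 with numpy 2.4.6, pandas 2.3.3 and matplotlib 3.10.9 made the tables and plots.

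The comparison and the 40 gene lists were chosen with earlier results of these data known. The rule for named genes took Sox2, Pou5f1, Sox21, Cdx2 and Nanog, the 10 largest rises and falls without overlap between groups, the 10 largest of each called in both Sox2 responses, the 8 largest called differences of responses, and up to 5 genes of smallest p from each list. Clone names were left out, and not all of these are reported here. Vil1, Fabp2, Muc2 and Lyz1 as markers, and Nsdhl, Fdft1, Mvk, Msmo1, Ugt2b36 and Gbp6 as members of lists, were named outside the rule after their values were seen. Alternatives were quantile normalization with and without normexp (offset 50), keeping dim probes, a variance trend, the 4 arrays by themselves, a replicate block and each array left out. A floor on dim values and a restriction to genes measured on all 4 arrays were added after seeing the data.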

Additional observations from a re-analysis of the deposited data

Results flagged for a closer look

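For 22 of the genes named above, the response to Sox2 with Oct4 on (Sox2xOct4 +DOX minus Oct4 +DOX) differed from the response without it (Sox2 +DOX minus Sox2 -DOX) by the limma test of the difference itself, and the sizes below are log2 differences of those responses. Larger values with Oct4 on were found for Defa21 (16.17), Nr0b1 (6.48), Pbld1 (6.17), Foxj1 (6.03), Gbp6 (5.74), St6galnac1 (5.16), Slc7a3 (4.75), Plod2 (4.15), Ifi44 (4.05), Ciita (3.65) and H2-DMb1 (3.40). The alpha-defensin Defa21 was low only on the Oct4 arrays. St6galnac1 was not well above background in Sox2xOct4 +DOX or in Oct4 +DOX, so its value holds no measured response with Oct4 on. Smaller values with Oct4 on were found for Krt6a (-9.44), Asb9 (-7.13), B3galt5 (-6.08), Pou3f1 (-5.97), Sptssb (-5.97), Tuba8 (-5.72), Sprr2h (-5.59), Aldh3a1 (-5.51), Lmo1 (-5.29), Sdc3 (-4.04) and Bdnf (-2.55). Aldh3a1 rose in both responses, though with Oct4 on its call depended on how dim values were treated, and Bdnf fell in both. The genes Krt6a, Ciita, H2-DMb1, St6galnac1, Gbp6, Lmo1, Plod2 and Sdc3 were picked after their values were seen. The Oct4 arrays lay on a slide of their own, and slide and genotype cannot be told apart in these values.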

How the results depend on the processing

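No called difference of a named gene changed sign under the alternatives run, which was partly fixed in advance. The fit to the 4 arrays, the variance trend and the replicate block leave each difference as it is. Leaving out 1 array cannot turn a sign where the arrays of the groups do not overlap. Of the 80 named genes called, 26 were called in the fit to the 4 arrays, against 68 of all 829 genes called. Most named genes were picked for a large difference or a small p, so their share does not stand for the 829. Each fit that left out 1 array kept only part of the 829 calls. Leaving out 1 array gave 312 to 752 calls between Sox2xOct4 and Oct4 (197 to 272 higher, 113 to 480 lower), 62 to 130 calls of the difference of responses (32 to 66 larger, 28 to 66 smaller) and 104 to 279 genes called in both responses. The array left alone in its group takes its spread from the remaining groups. With no filter on dim probes 546 genes were called (295 higher, 251 lower), with 70 for the difference of responses (33 larger, 37 smaller) and 159 in both responses. The 4 arrays alone gave 68 (49 higher, 19 lower). A variance trend gave 599 lower, 408 in both responses and 94 for the difference (38 larger). Normexp with quantile normalization gave 78 for the difference (30 larger), and quantile normalization alone gave 53 larger. Genes well above background on all 4 arrays gave 83 for the difference (46 larger, 37 smaller). The cause of these changes was not tested. Same-numbered arrays of Sox2xOct4 and Oct4 had deviations that correlated at 0.27 across genes, and the labels give no shared animal or day. With the replicate number as a block, 460 genes were higher and 358 lower. A slide block was not run, since it cannot be estimated between these groups. The 206 genes below background in both groups have no measured difference, and 2 arrays a group limit what can be detected.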
